A study of Mus musculus with 6 samples.

Results

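Calcineurin, its NFAT targets and the calmodulin-dependent kinases carry a rise in cytosolic calcium to the nucleus. Transcripts of 10 such effector genes were followed in mouse haematopoietic stem cells (HSCs) divided by surface CD38. The genes were chosen by symbol as cytosolic calcium effectors that act between calcium release and transcription, and all 10 were matched among the 49585 genes counted. They comprise the calcineurin subunit genes Ppp3ca, Ppp3cb and Ppp3r1, the NFAT factor genes Nfatc1, Nfatc2 and Nfatc3, and the kinase genes Camk2d, Camk2g, Camkk2 and Camk4. A filter on low counts left 9 of them for testing, and Camk4 did not pass it.

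CD38 is an enzyme that consumes NAD and makes cyclic ADP-ribose, a messenger that releases calcium from intracellular stores. Calcium-loaded calmodulin then switches on 2 kinds of enzyme. Calcineurin is a phosphatase made of a catalytic A and a regulatory B subunit, and it removes phosphates from NFAT proteins so that they enter the nucleus. CaM kinases phosphorylate their targets, among them the transcription factor CREB and, through CaMKK2, the energy sensor AMP kinase.

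The cells came from untreated C57BL/6 mice of 8 to 16 weeks, a wild-type strain, and each library was made from the HSCs of 10 pooled mice. The sort took lineage-negative bone marrow cells with Kit, Sca-1, CD150 and CD201 on their surface and without CD48 or CD34. It then split them into a CD38-positive group, labelled CD38hi in the protocol, and a CD38-negative group, labelled CD38lo. There were 3 libraries in each, set against each other in 3 pairs by the series' design text. Whether the same 10 mice gave both populations of a pair is not given in the sources used here. The p-values below measure the spread between these pooled libraries.

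Each library held between 16771180 and 18558610 counted reads. Levels below are on a depth-normalised scale (CPM). By library totals alone, before the further scaling of libraries, 3 reads are worth 0.162 to 0.179 CPM. The exact interval given below for the reads of Camk4 covers counting error only, unlike the edgeR intervals, which use the spread between libraries. Cd38 itself was at 24.2, 35.6 and 23.9 CPM in CD38-negative and 37.0, 46.3 and 58.3 CPM in CD38-positive libraries of pairs 1, 2 and 3. All 12 stem cell markers examined were detected. Granulocyte and monocyte markers (14 genes such as S100a8 and Elane) took 7.38% to 14.7% of reads although the sort was lineage-negative. Stem cell markers took 0.190% in the CD38-negative library of pair 2 against 0.0565% to 0.138% in the other 5 libraries. The difference without that pair is given beside the value of each tested member.

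No difference between the populations was detected for any of the 9 tested members. In the edgeR quasi-likelihood test with pair as a block, 0 of 9 passed a Benjamini-Hochberg adjusted p of 0.05, against 0.0135% of the 14785 genes tested (2 genes). The adjusted p-values of the members ran from 0.932 to 0.983. At an unadjusted p under 0.05 there were also 0 of 9, beside 5.08% of all genes, and DESeq2 and limma-voom with the same block each gave 0 of 9 by either measure. Fitted values above 0 were found for 5 of 9 members and for 50.1% of all genes. The median log2 difference, CD38-positive minus CD38-negative, was 0.04 over the 9 members and 0.00 over all genes tested. Each of the 9 intervals (95%, not adjusted for their number) included 0 and lay inside 2-fold in both directions. The widest reached -0.89 on the log2 scale, for Nfatc2.

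The pairs did not share a direction. Of the 9 members 0 moved in 1 direction in all 3 pairs, where 24.5% of all genes did, and 0 had CPM ranges that did not overlap between the populations, where 6.53% did. In pair 1 the CD38-positive library was higher for 5 members and lower for 4. In pair 2 it was lower for 8 of 9, with a median difference of -0.52, and in pair 3 it was higher for 7 of 9, with a median of 0.34. Over all genes the medians of pairs 2 and 3 were -0.02 and 0.03. The sign differed between pairs 2 and 3 for 6 members and was the same for Ppp3cb, Nfatc3 and Camk2g.

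**Figure D1:**
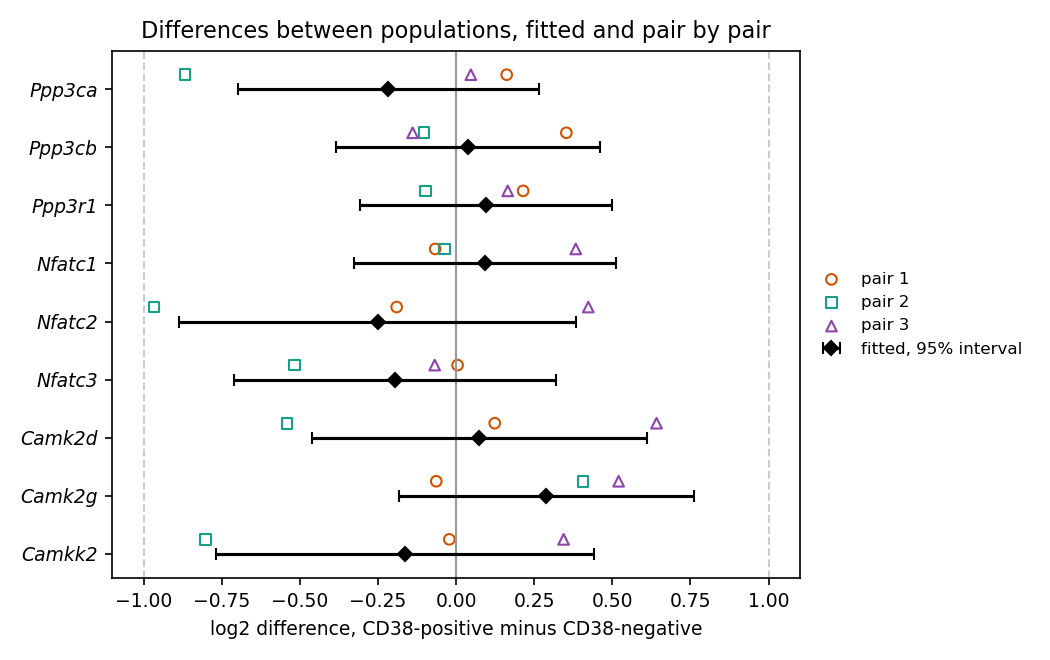
Log2 difference between CD38-positive and CD38-negative libraries for the 9 tested members, as fitted with its 95% interval (black) and in each pair (open symbols); dashed lines mark 2-fold. Every interval crosses 0, and the pair 2 symbols sit below 0 for 8 of 9 genes.

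Ppp3r1 had the highest level per transcript length of the 10 members in each of the 6 libraries. The gene (ENSMUSG00000033953, GRCm38 chromosome 11, 17159263 to 17200375, plus strand) encodes the calcium-binding regulatory subunit, calcineurin B. Its level was 209, 213 and 225 CPM in the CD38-negative and 242, 199 and 253 CPM in the CD38-positive libraries of pairs 1, 2 and 3. The groups overlapped because the CD38-positive library of pair 2 was the lowest of all 6. The fitted log2 difference was 0.09 (SE 0.19, interval -0.31 to 0.50, edgeR adjusted p = 0.966), and without pair 2 it was 0.18. Part of its exon sequence, 462 bases, is shared with Wdr92 on the same strand, so some of its reads may have been assigned to neither gene or to the other.

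Ppp3ca (ENSMUSG00000028161, chromosome 3, 136670124 to 136937727, plus strand) encodes the alpha form of the catalytic subunit. It was at 66.1, 80.1 and 66.1 CPM in CD38-negative and 74.0, 43.8 and 68.3 CPM in CD38-positive libraries. The highest and the lowest library were those of pair 2, which differed by -0.87 on the log2 scale, while pairs 1 and 3 differed by 0.16 and 0.05. The fitted difference was -0.22 (SE 0.22, edgeR adjusted p = 0.939), and without pair 2 it was 0.09.

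Ppp3cb (ENSMUSG00000021816, chromosome 14, 20499364 to 20546573, minus strand) encodes the beta form of the catalytic subunit. Its libraries had 62.6, 43.8 and 67.0 CPM in the CD38-negative and 80.0, 40.7 and 60.8 CPM in the CD38-positive group. Both libraries of pair 2 were low, and the spread between pairs was wider than the difference within any pair. The fitted difference was 0.04 (SE 0.20, edgeR adjusted p = 0.983). It was -0.12 without pair 1 and 0.10 without pair 2.

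The 3 NFAT genes encode transcription factors that calcineurin moves to the nucleus. Nfatc1 (ENSMUSG00000033016, chromosome 18, 80606205 to 80713071, minus strand) was at 56.5, 64.1 and 48.2 CPM in CD38-negative and 54.0, 62.5 and 62.9 CPM in CD38-positive libraries. These values spanned a narrow range, with an SD of log2 CPM over the 6 libraries of 0.16, against a median of 0.35 over all genes tested. The fitted difference was 0.09 (SE 0.20, edgeR adjusted p = 0.966). It was 0.15 without pair 2 and -0.05 without pair 3.

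Nfatc2 (ENSMUSG00000027544, chromosome 2, 168476410 to 168601657, minus strand) had 9.11, 20.8 and 9.72 CPM in CD38-negative and 7.97, 10.6 and 13.1 CPM in CD38-positive libraries. The CD38-negative library of pair 2 stood above the other 5, and the SD of log2 CPM, 0.49, was the largest among the 9 members. The fitted difference was -0.25 (SE 0.30, edgeR adjusted p = 0.944). Without pair 2 it turned to 0.11.

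Nfatc3 (ENSMUSG00000031902, chromosome 8, 106058840 to 106130537, plus strand) was at 18.5, 19.6 and 15.1 CPM in CD38-negative and 18.5, 13.6 and 14.4 CPM in CD38-positive libraries. The groups overlapped, and the fitted difference was -0.19 (SE 0.24, edgeR adjusted p = 0.949). Without pair 2 it was -0.04. Its exons share 219 bases with Esrp2 on the opposite strand, and the strand setting of the counting is not given in the sources used here. The other family members were checked for comparison: Nfatc4 had 2 reads in all 6 libraries together.

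**Figure D2:**
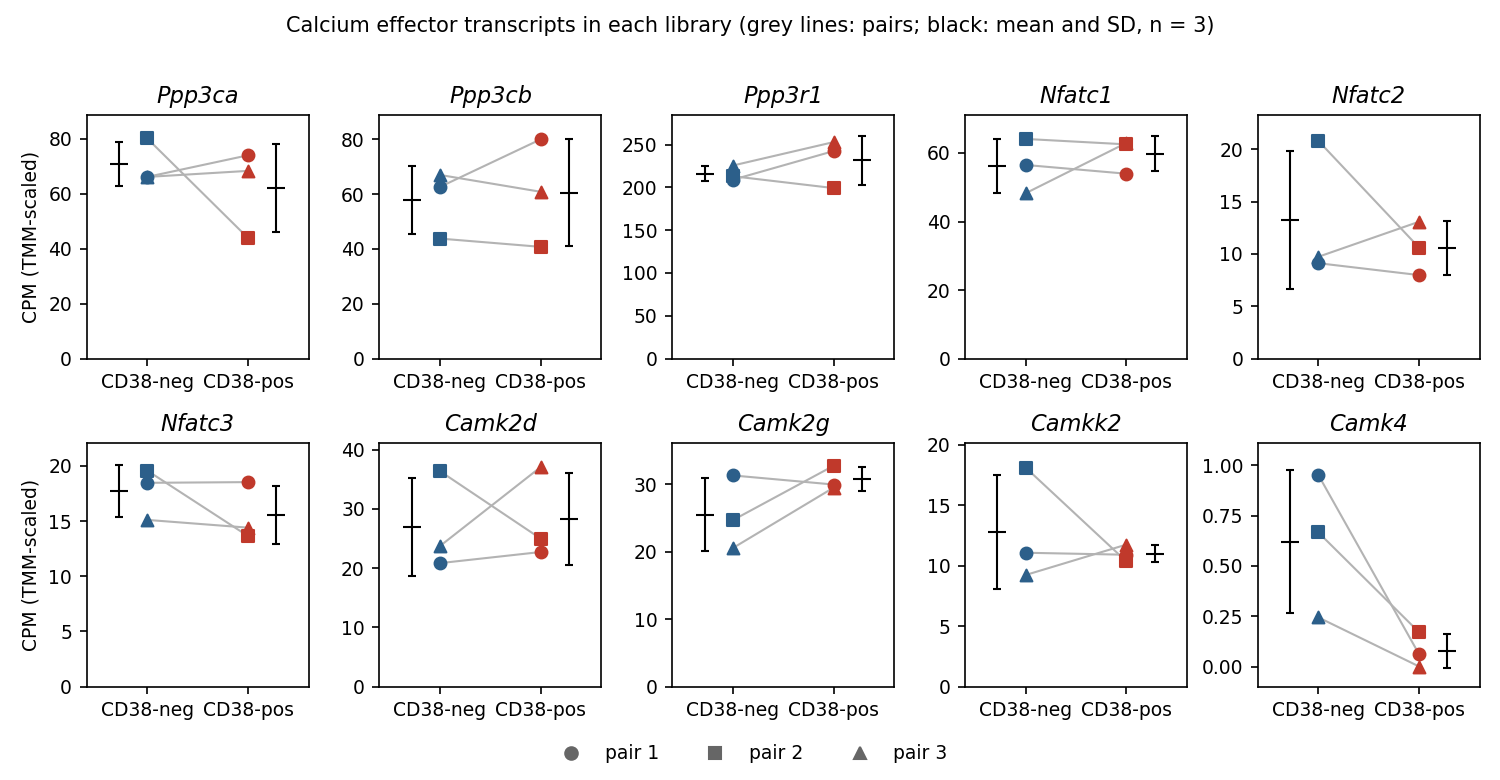
Normalised read counts (CPM) of the 10 members in each library; symbols mark the pair, grey lines join the libraries of a pair, and black bars give the mean and SD of each group (n = 3), with a separate vertical axis per gene. The CD38-negative library of pair 2 is highest for Ppp3ca, Nfatc1, Nfatc2, Nfatc3 and Camkk2, and Camk4 lies below 1 CPM in every library.

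Among the kinases, Camk2g and Camk2d encode the gamma and delta forms of CaMKII, which assembles into large rings and can stay active after calcium has fallen. Camk2g (ENSMUSG00000021820, chromosome 14, 20734875 to 20794088, minus strand) had 31.3, 24.7 and 20.5 CPM in CD38-negative and 30.0, 32.8 and 29.5 CPM in CD38-positive libraries. The 3 CD38-positive values lay close together, and the CD38-negative library of pair 1 fell among them. Its fitted difference of 0.29 (SE 0.22, interval -0.18 to 0.76) had the smallest p of the 9 members, 0.211 unadjusted and 0.932 adjusted in edgeR. Without pair 2 it was 0.22.

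Camk2d (ENSMUSG00000053819, chromosome 3, 126596302 to 126846326, plus strand) had 20.8, 36.4 and 23.7 CPM in CD38-negative and 22.7, 25.0 and 37.1 CPM in CD38-positive libraries. Its 2 highest libraries came from different populations, and the pair differences of 0.12, -0.54 and 0.64 had no common sign. The fitted difference was 0.07 (SE 0.25, edgeR adjusted p = 0.979). It was 0.37 without pair 2 and -0.21 without pair 3.

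Camkk2 (ENSMUSG00000029471, chromosome 5, 122731170 to 122779409, minus strand) encodes the kinase that activates CaMKI, CaMKIV and AMP kinase. It was at 11.1, 18.1 and 9.23 CPM in CD38-negative and 10.9, 10.4 and 11.8 CPM in CD38-positive libraries. The CD38-negative library of pair 2 again stood above the other 5, which lay between 9.23 and 11.8 CPM. The fitted difference was -0.16 (SE 0.28, edgeR adjusted p = 0.962), and it was 0.15 without pair 2.

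Camk4 (ENSMUSG00000038128, chromosome 18, 32934931 to 33191228, plus strand) encodes CaMKIV, a nuclear kinase best known from neurons and T cells that phosphorylates CREB. It was close to undetected, with 16, 12 and 4 reads in CD38-negative libraries and 1, 3 and 0 reads in CD38-positive libraries of pairs 1, 2 and 3. The read counts of the groups did not overlap, although all 6 values were under 1 CPM. Among the 14785 genes tested, which do not include Camk4, 6.53% had CPM ranges that did not overlap. CD38-positive libraries held 4 of its 36 reads, or 11.1% (exact Clopper-Pearson 95% interval 3.11% to 26.1%), while they held 51.0% of all reads. That interval compares these libraries and covers counting error only. With every gene of at least 1 read included, the edgeR log2 difference was -3.01 (SE 1.14, unadjusted p = 0.00834, adjusted p = 0.486). In that fit 80 of 26504 genes, 0.302%, passed the adjusted threshold and 5.06% had an unadjusted p under 0.05. Without pair 1 or without pair 2 it did not pass the filter. Without pair 3 it passed through the CD38-negative libraries alone, so that fit is not used.

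Because CaMKIV is a T cell kinase, markers of T and NK cells were examined beside it. All 14 were detected, and their summed reads were 0.0221%, 0.0218% and 0.0290% of the CD38-negative and 0.0320%, 0.0153% and 0.0162% of the CD38-positive libraries of pairs 1, 2 and 3. Between 2090 and 5231 of those reads per library came from Nkg7, a gene of cytotoxic granules. Of the T cell receptor genes, Cd3e had 0 reads in each CD38-negative library and 4, 3 and 0 in the CD38-positive libraries. Trac had 17, 14 and 8 reads against 23, 11 and 0, Cd3d had 23, 12 and 27 against 32, 16 and 9, and Cd3g had 11, 6 and 15 against 18, 15 and 16. The summed markers were lower in the CD38-positive library of pairs 2 and 3, as Camk4 was, and higher in that of pair 1. Most of that sum was Nkg7, with 3113, 2937 and 4528 reads in CD38-negative and 5231, 2090 and 2276 in CD38-positive libraries. Trac had the same directions. Cd3d, Cd3e and Cd3g instead had more reads in the CD38-positive library of pair 2. In pair 3 Cd3d had fewer there, and Cd3g was nearly equal, at 16 against 15 reads.

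The B and plasma cell markers, all 13 of them detected, had a lower summed share in the CD38-positive library of all 3 pairs, where Camk4 was lower too. They took 0.182%, 0.134% and 0.344% of reads in CD38-negative and 0.100%, 0.0387% and 0.0613% in CD38-positive libraries of pairs 1, 2 and 3. Jchain, which encodes the joining chain of secreted antibodies, had 5368, 3053 and 15346 reads against 621, 3 and 1836. Taken singly, 4 of the 13 were lower in CPM in 3 of 3 pairs and 1 was higher. Of the 14785 genes tested, 1667 were lower and 1950 higher in this way. The part of T, B or plasma cell RNA in the Camk4 reads was not tested.

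Levels of different genes were then compared per transcript length, as TPM computed from the longest annotated transcript of each gene. In mean ± SD over the 6 libraries, Ppp3r1 was at 132.6 ± 17.1 TPM, Ppp3cb at 25.6 ± 3.79, Ppp3ca at 23.6 ± 4.76 and Nfatc1 at 20.8 ± 4.58 TPM. Camk2g followed at 13.0 ± 2.94, Camk2d at 8.65 ± 3.03, Nfatc3 at 4.70 ± 0.786, Camkk2 at 4.22 ± 1.47, Nfatc2 at 3.04 ± 1.47 and Camk4 at 0.220 ± 0.237 TPM. Neighbours in this order were the same way round in 6 of 6 libraries, except for Ppp3cb and Ppp3ca (5 of 6), Ppp3ca and Nfatc1 (5 of 6), and Nfatc3 and Camkk2 (4 of 6). Those neighbours differed by less than the SD of either gene over the libraries, as did Camkk2 and Nfatc2, although the latter kept their order in 6 of 6. Ppp3r1 stood above 93.2% of all tested genes on this scale and Nfatc2 above 29.7%. The transcript of the regulatory subunit exceeded the sum of Ppp3ca and Ppp3cb 2.72 ± 0.438 times (SD, n = 6 libraries), with a range of 2.33 to 3.51. Both the order and this ratio depend on the length used. With the length of all annotated exons instead, Ppp3r1 had a mean of 149 TPM against 14.3 for Ppp3ca and 14.2 for Ppp3cb, a larger excess. By that length Camk2d (2.70 TPM) came after Nfatc3 (3.05), and Camkk2 (2.39) after Nfatc2 (2.49).

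The make-up of each family was then taken per length. Of the calcineurin A level, Ppp3cb made up 51.4% ± 6.08 (SD, n = 6 libraries), Ppp3ca 46.9% ± 5.82 and Ppp3cc, which is best known from testis, 1.71% ± 0.948. The testis form of the regulatory subunit, Ppp3r2, had 0 reads in all 6 libraries, each of which allows up to 0.179 CPM by library totals. Of the NFAT level, Nfatc1 made up 72.9% ± 3.19, Nfatc3 16.8% ± 2.70 and Nfatc2 10.3% ± 2.84. Nfatc1 was the leading NFAT transcript in each of the 6 libraries, with between 67.9% and 77.3%. Camk2g made up 49.8% ± 8.09 of the CaMKII level, Camk2d 32.3% ± 5.26, and the forms best known from brain, Camk2a and Camk2b, 9.50% ± 3.15 and 8.43% ± 1.68.

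These shares do not depend on the scaling of libraries. The Ppp3ca share was 45.3%, 58.3% and 44.1% in CD38-negative and 42.0%, 44.9% and 46.9% in CD38-positive libraries, so the CD38-negative library of pair 2 lay above the other 5 here too. In that library Ppp3ca exceeded Ppp3cb, at 39.6%, and in the other 5 Ppp3cb was the higher. The Camk2g share was 59.0%, 38.6% and 45.5% in CD38-negative and 57.2%, 54.0% and 44.6% in CD38-positive libraries. Both populations overlapped in both shares. With the length of all annotated exons in place of the longest transcript, Camk2d was at 17.0% of the CaMKII level, Camk2g was at 61.2%, and Nfatc1, at 17.0 TPM, came before Ppp3ca and Ppp3cb at 14.3 and 14.2 TPM.

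**Figure D3:**
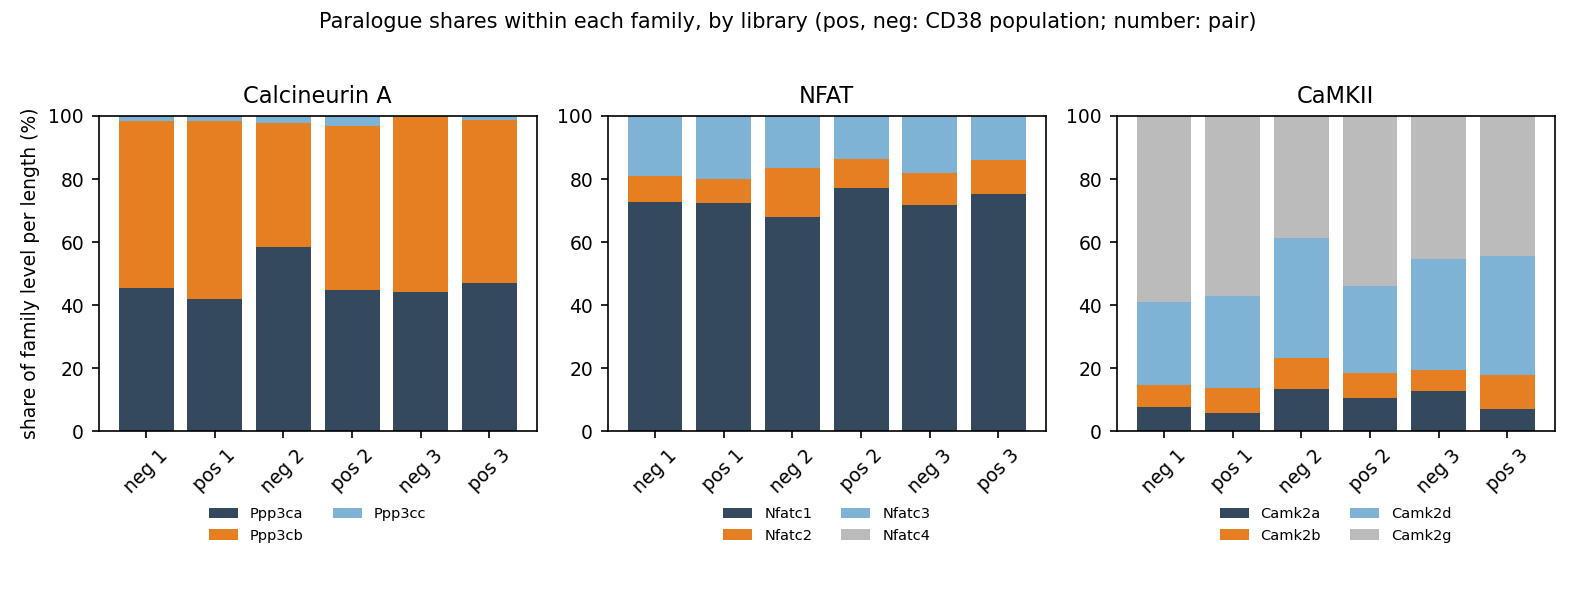
Share of each paralogue in the per-length level of its family, stacked to 100% for each library. Nfatc1 takes most of the NFAT level in every library, Ppp3ca takes 42.0% to 58.3% of calcineurin A, and Ppp3cc and Nfatc4 are close to 0.

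Each tested member was also set against the share of reads in the granulocyte and monocyte markers and in the stem cell markers. In bulk RNA, fewer cells of a type and less RNA per cell cannot be told apart. These 18 relations over 6 libraries were chosen after the values had been seen, and with 6 libraries the smallest two-sided exact p is 0.00278. Ppp3cb had the same order as the granulocyte and monocyte share in all 6 libraries. The marker share was 7.38%, 8.71%, 9.90%, 11.5%, 12.5% and 14.7%, and Ppp3cb was at 40.7, 43.8, 60.8, 62.6, 67.0 and 80.0 CPM in the same libraries. Pearson's r was 0.96 and Spearman's rho 1, each with the smallest exact permutation p, 0.00278, which is 0.05 after adjustment over the 18 relations and so not under the threshold. These permutations treat the 6 libraries as exchangeable, although both libraries of pair 2 form the low end. Over all genes, paired libraries also deviated together, with correlations of 0.34, 0.12 and 0.24 in pairs 1, 2 and 3. The mean deviation of the tested members had opposite signs in the 2 libraries of each pair. Permutations within the 3 pairs could not give a p that small. Without the 2 libraries farthest from the median share, r was 0.88.

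Because Ppp3cb and the marker share had the same order in all 6 libraries, their differences within pairs necessarily had the same signs. These differences are the same values given pair by pair and add no test. The CD38-positive minus CD38-negative difference in granulocyte and monocyte share was 3.13, -1.33 and -2.59 percentage points in pairs 1, 2 and 3, and that of Ppp3cb was 0.35, -0.10 and -0.14 on the log2 scale. The populations hold 3 libraries each, too few for a value of r within them. By contrast, Nfatc1 and Nfatc2 had negative r with this share, -0.78 and -0.65, with exact permutation p of 0.0639 and 0.153 (adjusted 0.30 and 0.458). Whether granulocyte or monocyte RNA contributed to the levels of these genes was not tested.

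With the stem cell markers, a list of 12 genes that includes Kit, Hlf, Mecom and Meis1, no relation passed after adjustment. The highest r was that of Nfatc2, 0.96 (exact permutation p = 0.0111, adjusted 0.10), with a rho of 0.83 (exact permutation p = 0.0583, adjusted 0.463). Without the CD38-negative library of pair 2 and the CD38-positive library of pair 3, which lay farthest from the median share, its r fell to 0.62. For Camk2d the r of 0.86 went to 0.24 without them, and for Camkk2 the r of 0.78 turned to -0.87. These 3 relations rested on those libraries, that of Nfatc2 in part. In the CD38-negative library of pair 2, Kit had 10003 reads against 1939 to 4109 in the other 5, and Nfatc2 had 374 reads against 133 to 237. The listed markers did not all move together. Slamf1 and Ctnnal1 were at 23.2 and 41.1 CPM in that library against 29.6 and 50.3 CPM in the CD38-positive library of pair 2. Of the 12 markers, 2 were higher and 3 lower in the CD38-positive library of all 3 pairs. Of the 14785 genes tested, 1950 were higher and 1667 lower in this way. The part of the stem cell markers in the members' pair 2 differences was not tested.

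**Figure D4:**
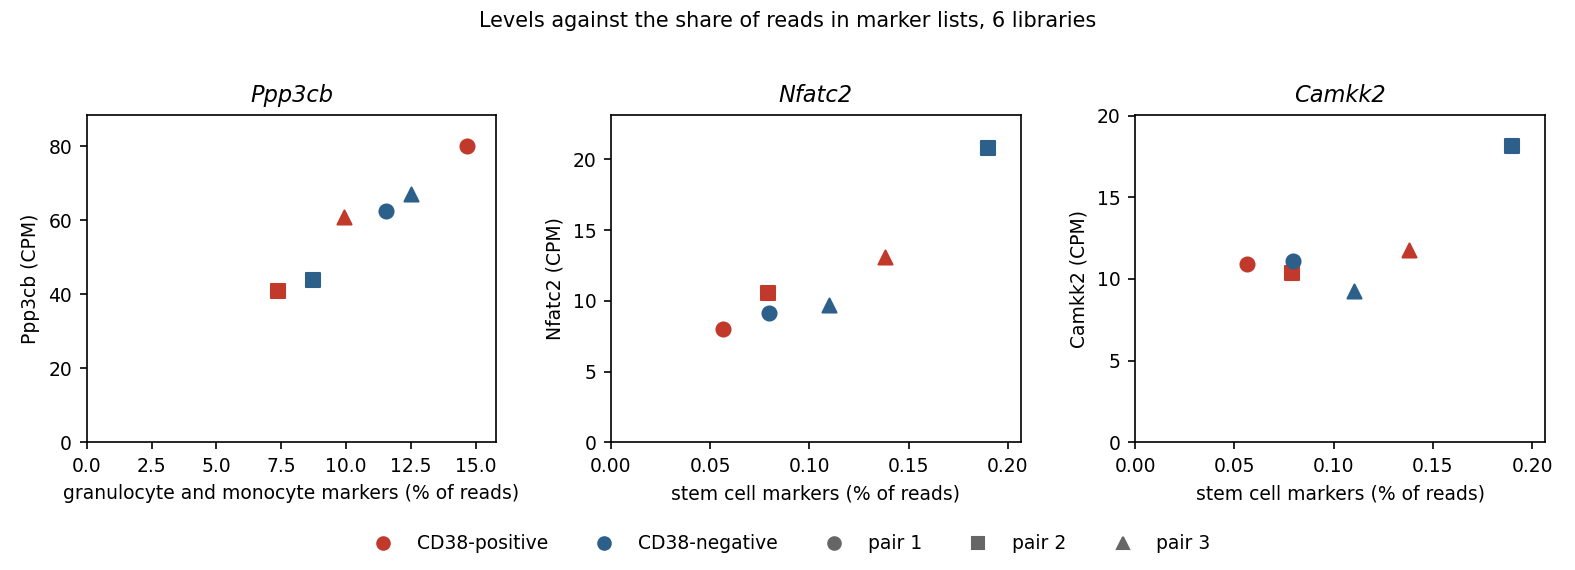
CPM of Ppp3cb against the granulocyte and monocyte marker share, and of Nfatc2 and Camkk2 against the stem cell marker share, in percent of each library's reads; each point is 1 library, with colour for population and shape for pair. Ppp3cb and its marker share have the same order in all 6 libraries, while for Camkk2 the CD38-negative library of pair 2, at 18.1 CPM, stands apart from 5 libraries at 9.23 to 11.8 CPM.

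The sequences upstream of these 3 genes are shown because Nfatc2 and Camkk2 shared a high library while Ppp3cb had a different pattern. Each is the 250 bases before the annotated start, from RefSeq on GRCm38.p6, 5′ to 3′ on the gene's strand, which is the minus strand for all 3. Of 2 windows for Nfatc2 the one at the outer start is given. Capitals mark the core of the NFAT binding site, GGAAA, on either strand, and this core contains the GGAA of ETS factors.
Nfatc2, chr2:168601658-168601907: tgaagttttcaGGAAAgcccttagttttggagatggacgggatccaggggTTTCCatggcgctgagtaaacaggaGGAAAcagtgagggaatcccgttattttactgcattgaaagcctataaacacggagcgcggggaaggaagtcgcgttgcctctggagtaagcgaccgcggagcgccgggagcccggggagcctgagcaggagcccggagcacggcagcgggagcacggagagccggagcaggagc
Camkk2, chr5:122779411-122779660: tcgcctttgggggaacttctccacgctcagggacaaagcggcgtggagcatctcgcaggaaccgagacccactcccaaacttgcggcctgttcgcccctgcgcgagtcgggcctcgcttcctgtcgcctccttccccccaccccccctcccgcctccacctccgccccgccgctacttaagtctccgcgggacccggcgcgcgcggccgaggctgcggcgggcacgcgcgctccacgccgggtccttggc
Ppp3cb, chr14:20546574-20546823: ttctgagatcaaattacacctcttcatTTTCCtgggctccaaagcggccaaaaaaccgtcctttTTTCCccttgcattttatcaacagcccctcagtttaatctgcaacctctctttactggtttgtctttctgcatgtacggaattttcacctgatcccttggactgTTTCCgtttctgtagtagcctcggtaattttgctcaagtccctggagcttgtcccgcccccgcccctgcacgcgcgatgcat
The core occurred 3 times in the Nfatc2 window, 3 times in that of Ppp3cb and 0 times in that of Camkk2, while 55.6% of the 32851 windows of this length in the table held it at least once. The CREB site TGACGTCA, present in 1.55% of windows, and the GATA site AGATAA on either strand, present in 9.99%, were in none of the 3. GC content was 59.6%, 72.4% and 48.4% in Nfatc2, Camkk2 and Ppp3cb. These matches describe the letters only.

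By the rule of highest Pearson r of log2 CPM over the 6 libraries, genes with a like pattern were listed for the most variable member of each family, among 14784 others. For Ppp3cb they were Clec5a (r = 0.997), Gm43495 (r = 0.994) and Pilra (r = 0.992). Clec5a and Pilra encode myeloid cell surface receptors. For Nfatc2 they were Trim65 (r = 0.997), Hdac11 (r = 0.996) and Fscn1 (r = 0.995), and for Camk2d they were Zfp846, Agbl3 and Tgm5 (r = 0.987, 0.983 and 0.981). They are given as a description of these 6 libraries, with no test.

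The rest of the pathway was read from 7 lists of 71 genes, of which 57 were tested. In edgeR, 0 of the 57 passed an adjusted p of 0.05, and 5 had an unadjusted p under 0.05, or 8.77% beside 5.08% of all genes. Of these, 2 were higher and 3 lower in CD38-positive libraries, where 2.47% and 2.61% of all genes were. The median log2 difference was -0.04, and 13 genes moved in 1 direction in all 3 pairs (22.8%, beside 24.5% of all genes).

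Calm2 encodes calmodulin, the calcium sensor upstream of every member. In CPM with SD (n = 3), Calm2 was at 1076 ± 375 in the CD38-negative and 943 ± 201 in the CD38-positive group. Calm2 and Ppp3cc had the smallest p among the 4 tested genes of the first list, with log2 differences of -0.16 and 0.59 (edgeR adjusted p = 0.955 and 0.936).

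Of 7 tested calcineurin regulators, 5 had fitted values above 0, and 0 passed at an unadjusted p under 0.05. Rcan1, a calcineurin inhibitor whose short form is a classical NFAT target, had 3.64 ± 1.26 CPM in the CD38-negative and 3.66 ± 0.496 CPM in the CD38-positive group (SD, n = 3). The 2 with the smallest p were Chp1, a calcineurin B homologue that binds a sodium-proton exchanger, at 0.38 and higher in 3 of 3 pairs, and Rcan3 at -0.46 (edgeR adjusted p = 0.926 and 0.930). Among 9 other NFAT factors and NFAT kinases, 2 had fitted values above 0. Nfat5, the NFAT relative that responds to osmotic stress and does not need calcineurin, had -0.32, with a pair 2 difference of -1.38, and Csnk1a1, a casein kinase, had 0.17 (edgeR adjusted p = 0.936 and 0.944).

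In the list of other CaM kinases and their inhibitors, 1 of 9 tested genes was higher and 1 lower at an unadjusted p under 0.05. Stk17b, a kinase of the death-associated protein kinase family, was at 160, 143 and 139 CPM in CD38-negative and 204, 197 and 204 CPM in CD38-positive libraries. Its groups did not overlap in CPM, as in 6.53% of all genes tested. The log2 difference was 0.46 (SE 0.18, edgeR unadjusted p = 0.0266, adjusted p = 0.925). Ppm1f, a phosphatase that reverses CaM kinase activation, was at 28.0, 40.8 and 20.4 CPM in CD38-negative and 22.4, 17.2 and 19.0 CPM in CD38-positive libraries. It was lower in 3 of 3 pairs, with a log2 difference of -0.55 (SE 0.26, edgeR unadjusted p = 0.0477, adjusted p = 0.926).

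AMP kinase is a well-known target of CaMKK2. Prkaa1, its alpha1 catalytic subunit, had 46.7, 60.0 and 44.1 CPM in CD38-negative and 43.0, 24.4 and 33.0 CPM in CD38-positive libraries. The groups did not overlap in CPM, as in 6.53% of all genes tested. The log2 difference was -0.61 (SE 0.24, edgeR unadjusted p = 0.0239, adjusted p = 0.925), with -1.29 in pair 2 against -0.12 and -0.42 in pairs 1 and 3. Prkag2, a regulatory subunit, had -0.55, with pair differences of -0.37, -1.42 and 0.13 (edgeR adjusted p = 0.926). Of the 7 genes in this list, which are 6 subunits and the upstream kinase Stk11, 3 had fitted values above 0.

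Among 14 nuclear partners of the kinases, 5 had fitted values above 0 and 1 was lower at an unadjusted p under 0.05. Crtc2, a CREB coactivator that calcineurin dephosphorylates, had 23.2, 33.0 and 25.1 CPM in CD38-negative and 20.1, 13.8 and 21.2 CPM in CD38-positive libraries. Its groups did not overlap in CPM, as in 6.53% of all genes tested. The log2 difference was -0.57 (SE 0.26, edgeR unadjusted p = 0.0442, adjusted p = 0.926), with -1.25 in pair 2. Hdac5, a histone deacetylase exported from the nucleus on CaM kinase phosphorylation, had 0.56, with pair differences of -0.10 and 0.32 in pairs 1 and 2 and a larger one in pair 3 (edgeR adjusted p = 0.926).

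Of 15 classical NFAT target genes of lymphocytes, 8 were tested. Over all 6 libraries together Nr4a1, a nuclear receptor gene, had 1120 reads and Tnf 733, while Il13 and Egr3 had 0, Cd40lg 1, Csf2 2 and Ifng 6. These 7 are named for their read counts, after the values were seen. Ptgs2, an inducible prostaglandin synthase, was higher in 3 of 3 pairs at 1.13, 0.222 and 0.734 CPM in CD38-negative and 1.56, 0.679 and 2.26 CPM in CD38-positive libraries. Its groups overlapped, and the log2 difference was 1.16 (SE 0.54, edgeR unadjusted p = 0.0484, adjusted p = 0.926). Il4, a cytokine gene, was lower in 3 of 3 pairs, with a log2 difference of -0.61 and -1.44 in pair 2 (edgeR adjusted p = 0.926).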

How the data were processed

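Each library is 1 sample of bulk RNA-seq. The authors deposited raw read counts per Ensembl gene, with no header. The submitters' processing notes name cutadapt, STAR, HTSeq 0.6.1p1 and the builds GRCm38 and mm10; the annotation release and strand setting are not given in the sources used here. Symbols matched 49326 of 49585 identifiers, and coordinates and lengths came from GENCODE M21 on GRCm38. In R 4.3.3, edgeR 4.0.16 kept 14785 genes (filterByExpr), scaled them by TMM and fitted pair plus population by quasi-likelihood. Standard errors and 95% intervals came from the quasi-F statistic, and p-values were adjusted over all genes. Paired libraries' deviations from their population means correlated at 0.34, 0.12 and 0.24, and the pairing comes from the design text. TPM used the longest transcript. Marker shares are percent of all counts, and for their relations 0.5 was added to the counts. Named genes were all members, Cd38, the 2 genes of each pathway list with the smallest p, and for the most variable member of each family the 3 most alike genes; others, such as Rcan1, Kit, Trac and Cd3e, are given as checks. One gene of a pathway list is not reported here. Members and lists were chosen with earlier results of these data known. Alternatives were no block, DESeq2 1.42.0, limma-voom (limma 3.58.1), other scalings and filters, leaving out each pair, other lengths and, added after seeing the data, a granulocyte covariate. Fits were tested on simulated data.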

Additional observations from a re-analysis of the deposited data

How the results depend on the processing

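The granulocyte covariate and the scalings of the marker relations were chosen after seeing the data. The count of members past the threshold was 0 under all 11 alternatives. At an unadjusted p under 0.05 it was 0 too, except for 1, Camk4, with no filter. The fit without pair 3, which Camk4 entered through the CD38-negative libraries alone, is not used for that gene. Over all genes the count of 2 was 0 without the replicate block (417 at an unadjusted p under 0.05), 0 with library totals (595) and 0 with the granulocyte covariate (460). It was 11 in DESeq2, 7 with DESeq2 size factors, 80 with no filter and 13 with a mean of at least 10 counts. Leaving out 1 pair at a time gave 2 to 41 genes. The block changed no member's call. Leaving out a pair gave log2 differences of -0.21 to 0.37 for Camk2d, -0.42 to 0.15 for Camkk2, -0.052 to 0.17 for Nfatc1, -0.59 to 0.11 for Nfatc2, -0.41 to 0.093 for Ppp3ca and -0.12 to 0.13 for Ppp3cb; the other 93 alternative values of the members kept their sign. The r of Ppp3r1 with the granulocyte share turned to -0.089 with library totals, and that of Ppp3cb was 0.90. Family shares moved with length: with all exons Camk2a was at 13.5%, Camk2d 17.0%, Camk2g 61.2%, Nfatc3 13.8% and Ppp3cc 3.09%, and by raw counts Camk2d was at 40.0%, Camk2g 41.6%, Nfatc1 67.2% and Nfatc2 13.4%. At this depth a gene under 3 reads, or 0.179 CPM by library totals, counts as undetected.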

Other observations

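Camk1, which encodes another kinase activated by CaMKK2 and was not among the 10 genes, varied more between libraries than any tested member. It was at 11.1, 34.9 and 27.6 CPM in CD38-negative and 6.59, 23.0 and 45.6 CPM in CD38-positive libraries of pairs 1, 2 and 3. Both libraries of pair 1 were the lowest. The groups overlapped, and the log2 difference was -0.20 (edgeR adjusted p = 0.955), with pair differences of -0.75, -0.60 and 0.72. It is named after its values were seen.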
